A study of Mus musculus with 24 samples.

Results

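This comparison sets RNA from heavy polysomes of untransformed Eif4e+/- mouse embryonic fibroblasts against the same fraction of wild-type (WT) fibroblasts. It uses 6 of the 24 arrays of the study, 3 per genotype, each taken to be from the culture of a different embryo. The arrays were chosen by their labels (untransformed cells, polysomal RNA), and all 19661 genes whose probe sets carry 1 gene symbol were read, of which 14830 passed the filter on low values. Both groups were early passage primary cells from E13.5 embryos, grown in DMEM with 10% fetal bovine serum and harvested while growing exponentially. Eif4e+/- cells keep 1 intact allele of Eif4e in place of the usual pair. Cycloheximide (100 µg/ml), which holds ribosomes on their mRNA, was given before lysis, and heavy polysomes were collected from gradients of 10 to 50% sucrose. How the allele was made is not given in the sources used here. The other 18 arrays hold total RNA of the same untransformed cultures and both fractions of cells from the same embryos transformed with Ras and Myc, given here only beside the polysomal values.

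Eukaryotic initiation factor 4E (eIF4E) binds the cap at the start of an mRNA. Together with the scaffold eIF4G and the helicase eIF4A it forms eIF4F, which brings the small ribosomal subunit to the mRNA. The 4E-binding proteins compete with eIF4G for eIF4E, and mTOR kinase releases them by phosphorylation. mRNAs for ribosomal proteins and elongation factors that start with a terminal oligopyrimidine tract (TOP), and some mRNAs for growth and survival proteins, have been described as unusually sensitive to these controls. An mRNA can be abundant in heavy polysomes because there is much of it in the cell or because each copy carries many ribosomes, and polysomal values alone do not separate these.

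Values are the authors' log2 RMA intensities, so a difference of 1 is a doubling. Array means were 3.78 to 3.79. A total of 7765 of the 14830 genes had a mean polysomal level under 4, near the array medians of 3.44 to 3.52. WT cultures 1 and 3 had the narrowest and the widest spread of values. Over all probe sets, the standard deviation (SD) of the values was 1.15 in WT culture 1, the narrowest, and 1.44 in WT culture 3, the widest, against 1.28 to 1.41 in the others. Correlations between arrays were 0.876 to 0.919 among WT, 0.956 to 0.967 among Eif4e+/- and 0.919 to 0.967 between genotypes. Total RNA gave 0.985 to 0.995 for every pair between genotypes. In polysomal RNA WT culture 3 correlated at 0.941 to 0.967 with the Eif4e+/- cultures and at 0.876 to 0.904 with the other WT cultures. The WT group was thus the more variable group in polysomal RNA, and the list medians printed below are given without WT culture 1 or WT culture 3 where either changes the sign or moves the median by over 1.5 times. Among the fibroblast markers, Vim (9.33 to 10.35), Thy1 (9.33 to 10.56) and S100a4 (9.03 to 10.91) were high on all 6 arrays, while Lum (2.17 to 2.97) and Fap (2.67 to 3.53) were near background.

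No gene passed the test. In limma 0 of 14830 genes (0.0%) differed between Eif4e+/- and WT polysomal RNA at a Benjamini-Hochberg adjusted p under 0.05, and the smallest adjusted p was 0.9999. An unadjusted p under 0.05 was found for 132 genes with higher Eif4e+/- values (0.89%) and for 115 with lower values (0.775%). Each Eif4e+/- culture lay above each WT culture for 351 genes (2.37%) and below each for 500 genes (3.37%). Counts of list members with groups apart, given later, are to be read against these shares. The difference was above 0 for 7855 genes (53.0%). For 12917 genes (87.1%) the 95% confidence interval of the difference in intensity lay between a halving and a doubling. Intervals were narrower for weak genes, with a median standard error of 0.20 at levels from 3 to 4 and 0.30 from 6 to 8. Such an interval held for 26 of 53 G2 and mitosis genes and 6 of 18 aminoacyl-tRNA synthetases. Near background a narrow interval does not exclude a larger change in the RNA itself. The replicate arrays are taken to come from separate embryos, by the culture numbers in their titles. All Eif4e+/- titles also read biological rep1, where the WT titles read rep1 to rep3, so the labels leave this uncertain. In total RNA Xist, an RNA of female cells, read 10.87, 5.69 and 11.07 in WT and 10.96, 11.37 and 5.54 in Eif4e+/- cultures. The Y-linked Uty read 4.66, 8.78 and 4.72 against 4.63, 4.81 and 8.84. Both groups thus held cells of both sexes, male in WT culture 2 and Eif4e+/- culture 3. Eif4e+/- culture 3 is therefore of another embryo than cultures 1 and 2, which these genes do not separate. Leaving out WT culture 3 raised the number of genes with an unadjusted p under 0.05 from 247 to 1422 (1077 higher and 345 lower, smallest adjusted p 0.414), and still called 0.

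The median difference varied with how abundant genes were in polysomes. Its median was -0.05 for 762 genes with a mean level under 3, -0.04 for 7003 genes from 3 to 4, 0.05 for 3740 genes from 4 to 5, 0.13 for 1831 genes from 5 to 6, 0.18 for 1228 genes from 6 to 8 and 0.15 for 266 genes over 8. In total RNA of the same cultures the medians of these classes were -0.03 to 0.01. Without WT culture 1, the array with the narrowest spread, the polysomal medians were -0.04 to 0.03, and without WT culture 3 they reached 0.33. Quantile normalization narrowed them to between -0.02 and 0.07, and after scaling to a common spread they ran from -0.08 for genes over 8 to 0.10 for genes from 5 to 6.

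**Figure D1:**
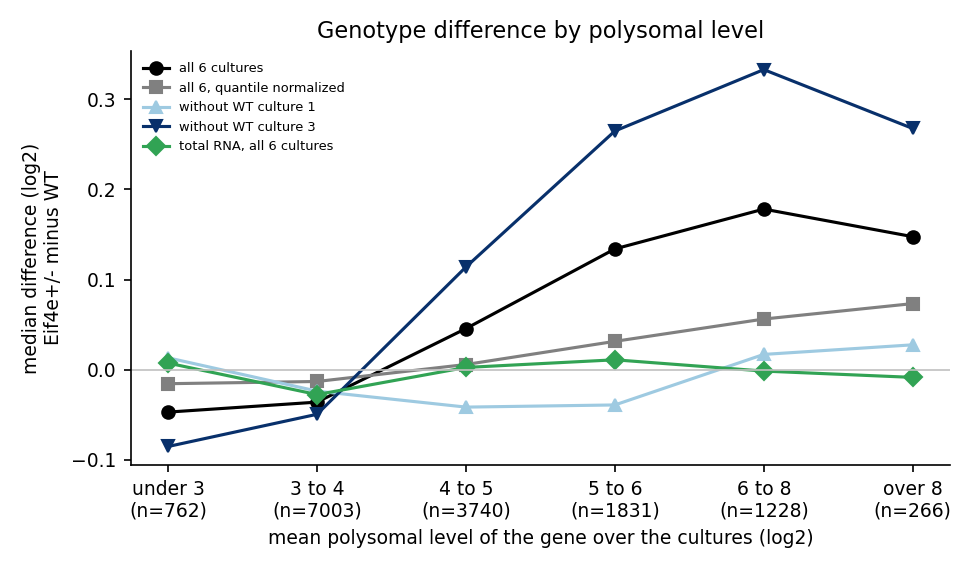
Median difference in log2 intensity, Eif4e+/- minus WT, of genes grouped by their mean polysomal level (log2), with the number of genes n under each class. The black line (all 6 cultures) climbs from -0.05 to 0.18 with level, the line without WT culture 1 stays between -0.04 and 0.03, the line without WT culture 3 reaches 0.33, and total RNA stays near 0.

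Eif4e itself, on chromosome 3, is the targeted gene and is measured by a pair of probe sets. Probe set 10496485, the brighter, read 4.19, 3.91 and 4.09 in WT cultures 1 to 3 and 3.67, 4.01 and 3.88 in Eif4e+/- cultures 1 to 3, a mean of 4.07 ± 0.14 against 3.85 ± 0.17 (SD, n = 3). The groups overlap, since Eif4e+/- culture 2 lay above WT culture 2. The difference was -0.21, a level of 86.2% of WT (exact two-sided permutation p = 0.2), with a standard error (SE) of 0.27 and a 95% interval of -0.80 to 0.37 in limma. Probe set 10496490 read 4.51, 3.86 and 3.85 in WT and 3.69, 3.64 and 3.81 in Eif4e+/- cultures, a difference of -0.35 or 78.3% of WT (exact two-sided permutation p = 0.1, the smallest that 3 against 3 can give). Here each Eif4e+/- culture lay below each WT culture, by a margin set by WT culture 3 and Eif4e+/- culture 3. Both probe sets were weak in polysomal RNA, with values near the array medians (probe set 10496485 at the 50.8th percentile of tested genes), so these percentages are of measured intensity close to background. In total RNA, where they read 7.47 to 9.21, the same probe sets differed by -0.30 (exact permutation p = 0.1) and -0.11 (exact permutation p = 0.5). Over both probe sets and both fractions the point estimates were 78.3 to 92.4% of the WT level.

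**Figure D2:**
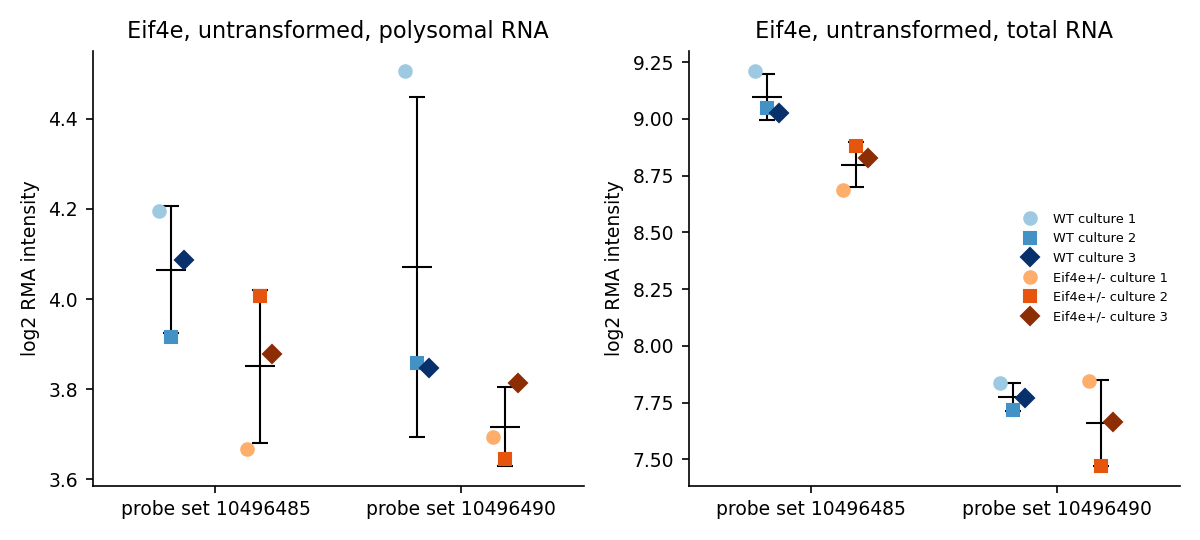
Log2 RMA intensity of the Eif4e probe sets in each untransformed culture, in polysomal RNA (left) and total RNA (right); bars are the mean ± SD of 3 cultures. Groups are apart for probe set 10496490 in polysomal RNA and for probe set 10496485 in total RNA, and overlap in the other panels.

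The list of eIF4F subunits, eIF4E paralogs and related factors showed no called change. Of its 8 measured genes, Eif4e among them, 6 had a difference above 0. The median was 0.23, and 0 had groups apart. Eif4b, a cofactor of the helicase, read 5.58, 5.97 and 7.29 in WT cultures 1 to 3 and 6.78 ± 0.23 (SD, n = 3) in Eif4e+/- cultures, a difference of 0.50 ± 0.38 (SE). WT culture 3 was the highest of the 6 and the other WT cultures the lowest. WT culture 3 was also the highest for the translation repressor Pdcd4, which sequesters eIF4A (3.69, 4.47 and 5.54 against 4.43, 5.06 and 4.37; difference 0.06). Eif4h differed by 0.41, Eif4g3 by 0.24, Eif4g2 by 0.24, Eif4e2 by 0.21, the helicase gene Eif4a2 by 0.17 and Eif4e3 by -0.03. Without WT culture 1 the list's median was -0.00, without WT culture 3 it was 0.51, and after quantile normalization it was 0.12. Eif4g1, Eif4a1 and Eif4ebp3 are not analysed here.

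Regulators of eIF4E had values on both sides of 0. Among 20 measured regulators and poly(A) factors 9 were above 0, the median was -0.01 (-0.12 without WT culture 1, 0.10 without WT culture 3), and 17 of 20 had an interval between a halving and a doubling. The 4E-binding proteins Eif4ebp1 (-0.10 ± 0.24, SE) and Eif4ebp2 (-0.09 ± 0.20) and the eIF4E kinases Mknk1 (0.29 ± 0.30) and Mknk2 (0.09 ± 0.19) differed by at most about 1 standard error. Pabpc1, the main cytoplasmic poly(A)-binding protein, differed by 0.33, the TOP mRNA repressor Larp1 by 0.24, Mtor by 0.23 and Rptor by 0.17. Larp4, another poly(A) binding factor, differed by -0.41, which was -0.08 without WT culture 3. No regulator had an unadjusted p under 0.05 in limma.

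Among genes with non-overlapping groups, the 10 with the smallest p for higher Eif4e+/- values included 3 replication-dependent histone genes, and none passed the test. Ncapd2, a subunit of the condensin I complex that compacts mitotic chromosomes, read 4.07, 3.88 and 4.64 in WT and 5.19, 5.04 and 5.04 in Eif4e+/- cultures (0.90 ± 0.25, SE, limma adjusted p = 0.9999). Asf1b, a chaperone that delivers histones H3 and H4 during replication, read 5.47, 4.99 and 5.34 against 6.69, 6.16 and 6.02 (1.02 ± 0.29). The lowest Eif4e+/- culture lay above the highest WT culture in both genes, which was culture 3 for Ncapd2 and culture 1 for Asf1b. Slc38a4, an amino acid transporter, read 6.59, 6.85 and 7.07 in WT and 7.66, 7.42 and 7.77 in Eif4e+/- cultures (0.78 ± 0.24). The others were Cd109, a membrane-anchored co-receptor of TGF-beta signalling (0.89 ± 0.29), Jpt1 (0.68 ± 0.20), the splicing kinase Clk3 (0.62 ± 0.20), the centriolar tubulin gene Tube1 (0.49 ± 0.16) and the histone genes H2bc9, H4c6 and H4c8. The range of Cd109 in Eif4e+/- cultures (5.02, 5.07 and 6.01) rests on culture 3. In total RNA only Ncapd2 (0.41) and Tube1 (0.28) of these 10 genes also had groups apart, and total RNA differences of the rest ran from -0.04 for H2bc9 to 0.29 for Asf1b.

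The 10 genes with the smallest p for lower values had WT means of 3.22 to 5.26, where the array medians were 3.44 to 3.52 and the 75th percentiles 4.22 to 4.50. Otp, a homeobox factor of the hypothalamus, read 4.73, 4.63 and 4.46 in WT and 4.09, 3.89 and 3.97 in Eif4e+/- cultures (-0.62 ± 0.16, SE, limma adjusted p = 0.9999). Rprm (reprimo), a p53-induced inhibitor of entry into mitosis, read 4.98, 4.79 and 4.86 against 4.23, 4.26 and 4.32 (-0.61 ± 0.17). Tlr4, the receptor for bacterial lipopolysaccharide, read 3.25, 3.18 and 3.23 against 2.31, 2.67 and 2.90 (-0.59 ± 0.18). For all of these the groups were apart. The rest were Morn2 (-0.92 ± 0.25), Ccdc85c (-0.65 ± 0.19), G6pd2 (-0.63 ± 0.19), Btbd17 (-0.61 ± 0.18), the antisense transcript Znrd1as (-0.60 ± 0.19), the inositol phosphate kinase Ip6k3 (-0.57 ± 0.16) and Slc7a4 (-0.52 ± 0.16). G6pd2 is a near copy of the X-linked G6pdx, so its probes may read both. Rprm (-0.17) and Slc7a4 (-0.14) also had groups apart in total RNA.

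**Figure D3:**
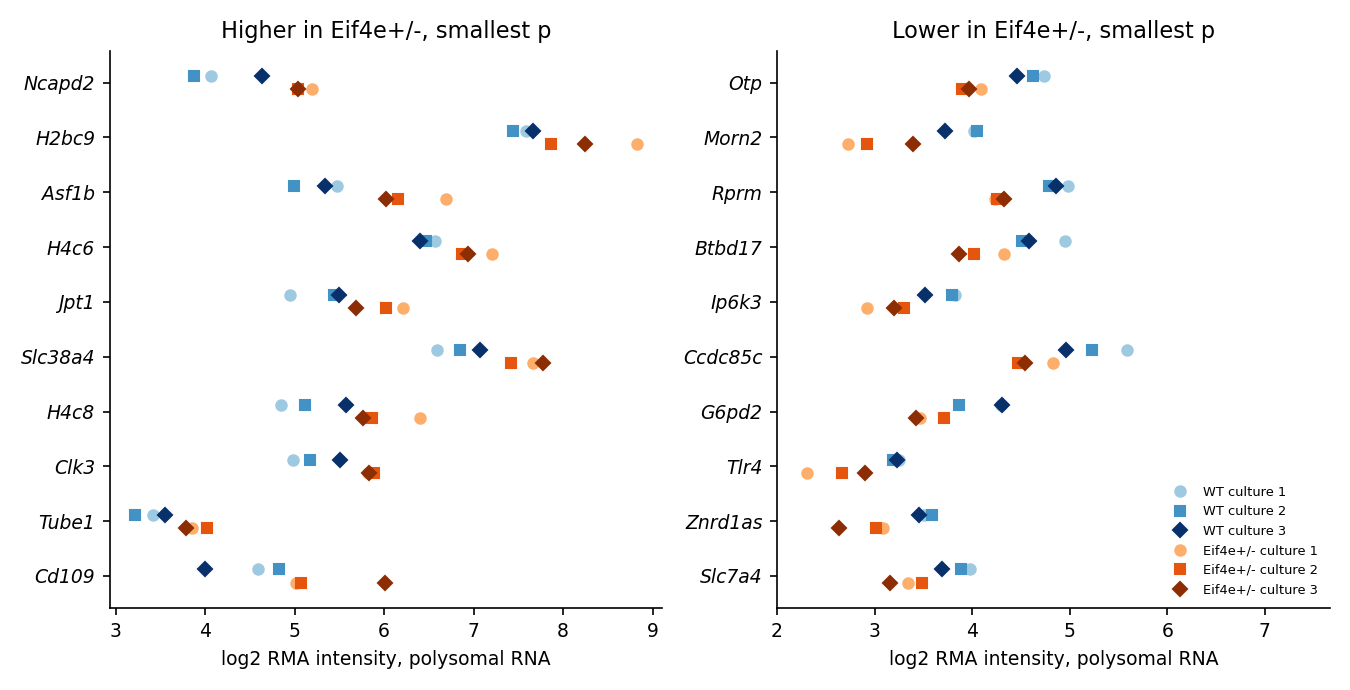
Log2 RMA intensity in polysomal RNA of each untransformed culture for the 10 genes with the smallest p in each direction among genes with non-overlapping groups. WT cultures are blue and Eif4e+/- cultures orange; genes were selected for the separation seen, and none passed adjustment.

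Most cell cycle genes had a difference above 0, in polysomal and in total RNA alike. Of 53 G2 and mitosis genes 52 were above 0 (98.1%, against 53.0% of all genes), with a median of 0.33. Groups were apart for 4 in this direction (7.55%, against 2.37% of all genes) and 0 in the other. The exception was Ckap2 at -0.05, a direction that flips under both rescalings. Plk1, the kinase that drives mitotic entry, read 6.08, 5.39 and 6.35 in WT and 6.81, 6.50 and 6.48 in Eif4e+/- cultures (0.65 ± 0.26, SE). Ube2c, the ubiquitin-conjugating enzyme of the anaphase-promoting complex, read 5.58, 5.28 and 5.69 against 6.31, 5.88 and 5.92 (0.52 ± 0.21). In both genes the WT culture closest to the Eif4e+/- cultures was culture 3. Nek2 (0.56), a centrosome kinase named here after its values were seen, completes the 4 with Ncapd2. The mean of the list was 4.45, 4.28 and 5.06 in WT and 5.10, 4.84 and 4.92 in Eif4e+/- cultures, so that WT culture 3 lay within the Eif4e+/- range. In total RNA 52 of 53 were also above 0, with a median of 0.34, and list means of 9.87, 9.41 and 9.51 against 10.07, 9.73 and 9.95, where WT culture 1 lay within the Eif4e+/- range.

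Of the S phase and DNA replication genes 45 of 49 were above 0, with a median of 0.25, the same median as in total RNA (47 of 49 above 0). Groups were apart for 6 genes in this direction (12.2%, against 2.37% of all genes) and for 0 in the other. Mcm2, a subunit of the replicative helicase, read 5.32, 4.94 and 5.80 in WT and 6.10, 6.18 and 5.86 in Eif4e+/- cultures (0.69 ± 0.23, SE). Rrm2, the inducible subunit of ribonucleotide reductase, read 5.54, 4.88 and 6.23 against 6.50, 6.63 and 6.24 (0.91 ± 0.34). For both, WT culture 3 came close to the lowest Eif4e+/- culture, and WT culture 2 was the lowest. Uhrf1, which maintains DNA methylation behind the fork, read 4.92, 4.35 and 4.89 against 5.53, 5.29 and 5.57 (0.74 ± 0.28). List means were 4.71, 4.42 and 5.13 in WT and 5.24, 5.08 and 4.91 in Eif4e+/- cultures. Medians of both cell cycle lists kept their sign and were at least 0.195 under quantile normalization, under scaling to a common spread and without WT culture 1 or 3, and without WT culture 3 they were 0.46 for S phase and 0.57 for G2 and mitosis genes. Genes with a mean level from 4 to 5, the class of both lists' medians, had a median of 0.05. No member was called.

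Short elements known from promoters, among them those of cell cycle genes, were looked up in these lists. All but CCAAT were absent from most members. RefSeq promoters (GRCm38.p6, 250 bases before the annotated start) were searched on both strands. Whether the elements bear on the polysomal differences was not tested. The E2F octamers TTTGGCGC and TTTCCCGC, sites of the factors that switch on S phase genes, were found in 7 of 41 S phase genes with a promoter (17.1%), 1 of 44 G2 and mitosis genes (2.27%) and 307 of 11709 tested genes (2.62%). The cell cycle genes homology region core TTTGAA, which holds mitotic genes silent outside G2, was found in 18 of 44 G2 and mitosis genes (40.9%) and 12.8% of tested genes. CCAAT was found in 25 of 41 S phase genes (61%), 34 of 44 G2 and mitosis genes (77.3%) and 39.2% of tested genes. TATAAA was found in 3 of 41, 2 of 44 and 9.14%. The polysomal difference had a median of 0.313 in S phase genes with an octamer and 0.255 in those without. It was 0.288 in G2 and mitosis genes with the core and 0.378 in those without. With and without CCAAT it was 0.436 and 0.189 in S phase genes, and 0.302 and 0.469 in G2 and mitosis genes. Short windows that end before the start follow, each 5′ to 3′ on the gene's strand with the motif or its reverse complement in capitals.
Mcm6 (chr1:128359734-128359763, minus strand): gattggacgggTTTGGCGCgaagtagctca
Mcm5 (chr8:75109349-75109378, plus strand): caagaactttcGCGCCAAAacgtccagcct
Cdc6 (chr11:98908002-98908031, plus strand): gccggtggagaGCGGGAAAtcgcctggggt
Mcm7 (chr5:138172030-138172059, minus strand): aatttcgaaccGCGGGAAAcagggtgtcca
Cdk2 (chr10:128705173-128705202, minus strand): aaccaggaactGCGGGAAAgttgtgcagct
Pola1 (chrX:93632275-93632304, minus strand): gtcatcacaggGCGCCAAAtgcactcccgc
Gins3 (chr8:95633507-95633536, plus strand): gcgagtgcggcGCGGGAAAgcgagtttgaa
Ncapd2 (chr6:125191587-125191605, minus strand): ccatctcgttgTTTGGCGC
Ube2c (chr2:164769889-164769916, plus strand): gagggttgcaaTTCAAAcgcgggcggcg
The first 7 are all the S phase genes with an octamer, in order of their polysomal difference, which was 0.56 for Mcm6, 0.49 for Mcm5, 0.46 for Cdc6, 0.31 for Mcm7, 0.25 for Cdk2, 0.05 for Pola1 and 0.01 for Gins3. The octamers of these 7 genes begin 41 to 165 bases before the start. The highest and the lowest of these differences, Mcm6 and Gins3, belong to the ones of the 7 nearest to it (47 and 41 bases). The sign of Gins3 flips after quantile normalization. In Ncapd2 the octamer ends at the base before the annotated start. A match is a run of letters and no measure of binding.

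Replication-dependent histone genes, whose mRNAs end in a stem-loop in place of a poly(A) tail, differed among themselves. Of 24 measured members 18 were above 0 with a median of 0.30, and the range ran from -0.62 to 0.83. H2bc9 read 7.58, 7.44 and 7.67 in WT and 8.83, 7.87 and 8.24 in Eif4e+/- cultures (0.75 ± 0.21, SE). H4c6 read 6.57, 6.47 and 6.40 against 7.21, 6.87 and 6.93 (0.52 ± 0.16), and H4c8 read 4.85, 5.12 and 5.57 against 6.40, 5.86 and 5.77 (0.83 ± 0.26). These 3 were the members with groups apart in this direction (12.5%, against 2.37% of all genes). H2bc4, named after its values were seen, went the other way (8.39, 8.11 and 8.22 against 7.50, 7.93 and 7.44; -0.62, groups apart). In total RNA H2bc9 differed by -0.04, H4c6 by 0.16 and H4c8 by 0.08, while the list had 14 of 24 above 0 and a median of 0.07. After scaling to a common spread the polysomal median was 0.09. Histone genes of a class are nearly identical in sequence, so 1 probe set may read several of them.

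**Figure D4:**
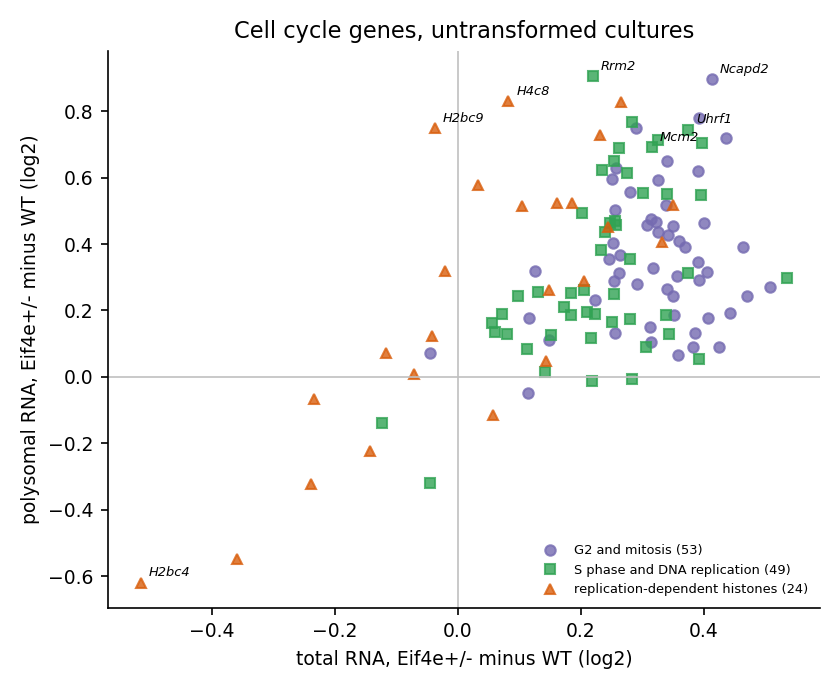
Difference in log2 intensity, Eif4e+/- minus WT, in polysomal RNA (vertical) against total RNA (horizontal) of the untransformed cultures for the measured members of 3 cell cycle lists, 1 point per gene. Most G2 and S phase genes sit above 0 on both axes, while H2bc9 and H4c8 are high in polysomal RNA at total RNA differences of -0.04 and 0.08.

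Genes of protein folding in the endoplasmic reticulum were mostly above 0 in polysomal RNA and not in total RNA. Of 25 measured members 24 were above 0 with a median of 0.25, where total RNA gave 10 of 25 and -0.01. Hyou1, a chaperone of the organelle, read 5.53, 5.54 and 5.53 in WT and 6.11, 5.83 and 6.14 in Eif4e+/- cultures (0.49 ± 0.19, SE). The WT cultures were nearly equal, and all Eif4e+/- cultures lay above them. Pdia6, a disulfide isomerase, read 7.45, 8.06 and 7.06 against 7.98, 8.10 and 8.40 (0.64 ± 0.27), and Xbp1, a transcription factor of the unfolded protein response, differed by 0.49 ± 0.22. For Pdia6 the groups overlap at WT culture 2. The list mean was lowest in WT culture 3 (6.82, 7.22 and 6.57 in WT, 7.20, 7.03 and 7.29 in Eif4e+/- cultures), and the median was 0.12 without it and 0.27 without WT culture 1. Members above 0 were 16 of 25 without WT culture 3, 23 without WT culture 1, 21 after quantile normalization and 18 on a common spread. In transformed polysomal RNA 4 of 25 were above 0, with a median of -0.07. Sec61a1 (0.48), a subunit of the translocation channel named after its values were seen, was the other member with groups apart. Members apart above were 8% of the list, against 2.37% of all genes. Genes with a level from 6 to 8, where the median level of this list lies, had a median of 0.18. Cholesterol and fatty acid synthesis genes had 25 of 28 above 0 and a median of 0.28 (0.16 to 0.24 under both rescalings and without WT culture 1 or 3), with Scd2, a fatty acid desaturase, at 0.71, Ebp at 0.53 and the regulator Srebf1 at 0.38. Its members with groups apart (7.14%, against 2.37% of all genes) were Sqle (0.60) and Fads1 (0.36), both named after their values were seen. In total RNA that list had a median of 0.01.

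Genes of the translation machinery other than ribosomal proteins were mostly above 0. Here the list means of WT culture 3 lay at the far side of all Eif4e+/- cultures. All 18 measured aminoacyl-tRNA synthetases, which charge tRNAs, were above 0, with a median of 0.39 and 1 with groups apart. Their mean was 5.50, 5.59 and 6.85 in WT and 6.31, 6.40 and 6.33 in Eif4e+/- cultures. Thus the Eif4e+/- cultures lay close together between a pair of low WT cultures and a high one. Vars, the synthetase for valine, was the one with groups apart (5.30, 4.81 and 5.22 against 5.75, 5.42 and 5.37; 0.40 ± 0.20, SE), Sars differed by 0.50 and Kars by 0.46. The same order was seen in the means of other initiation factors (5.97, 6.09 and 7.03 against 6.57, 6.72 and 6.49), of TOP mRNAs other than ribosomal proteins (7.08, 7.09 and 8.08 against 7.76, 7.90 and 7.53), of MYC-driven ribosome biogenesis genes (5.18, 5.19 and 6.22 against 5.76, 5.89 and 5.74) and of proteasome subunits (6.81, 7.09 and 7.86 against 7.63, 7.57 and 7.29). In total RNA the synthetase mean of WT culture 3 was 10.64, inside the Eif4e+/- range of 10.56 to 10.79.

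The medians of these lists moved with both WT cultures. For comparison, all genes with a level from 6 to 8, the class of the initiation factors, TOP mRNAs and proteasome subunits, had a median of 0.18, and genes from 5 to 6, the class of the synthetases and biogenesis genes, had 0.13. Initiation factors outside eIF4F had 27 of 32 above 0 and a median of 0.21, which was 0.02 without WT culture 1, 0.57 without WT culture 3 and 0.12 after quantile normalization. Eif3h, a subunit of the eIF3 complex, read 7.67, 7.31 and 8.39 in WT and 8.59, 8.52 and 8.22 in Eif4e+/- cultures (0.65 ± 0.25, SE), while Eif3l and Eif3f each differed by 0.44. TOP mRNAs other than ribosomal proteins had 21 of 23 above 0 and a median of 0.33 (0.15 and 0.60 without either WT culture), among them Eef2, the elongation factor that moves the ribosome along, at 0.43 ± 0.20. Synthetase medians were 0.11 without WT culture 1 and 0.79 without WT culture 3. MYC-driven biogenesis genes had 48 of 54 above 0 and a median of 0.25 (0.09 and 0.62), with the box C/D particle protein Nop56 at 0.80 ± 0.36. Proteasome subunits had 25 of 28 above 0 and a median of 0.23 (0.02 and 0.55, and 0.10 to 0.13 under both rescalings). They were led by Psma5 (5.19, 5.29 and 6.10 against 7.04, 6.19 and 6.22, 0.96 ± 0.32, groups apart). In total RNA 51 of 54 biogenesis genes (median 0.12) and 28 of 32 initiation factors (0.04) were also above 0. There the synthetases had 14 of 18 (0.09), the TOP mRNAs 16 of 23 (0.02) and the proteasome subunits 20 of 28 (0.01).

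**Figure D5:**
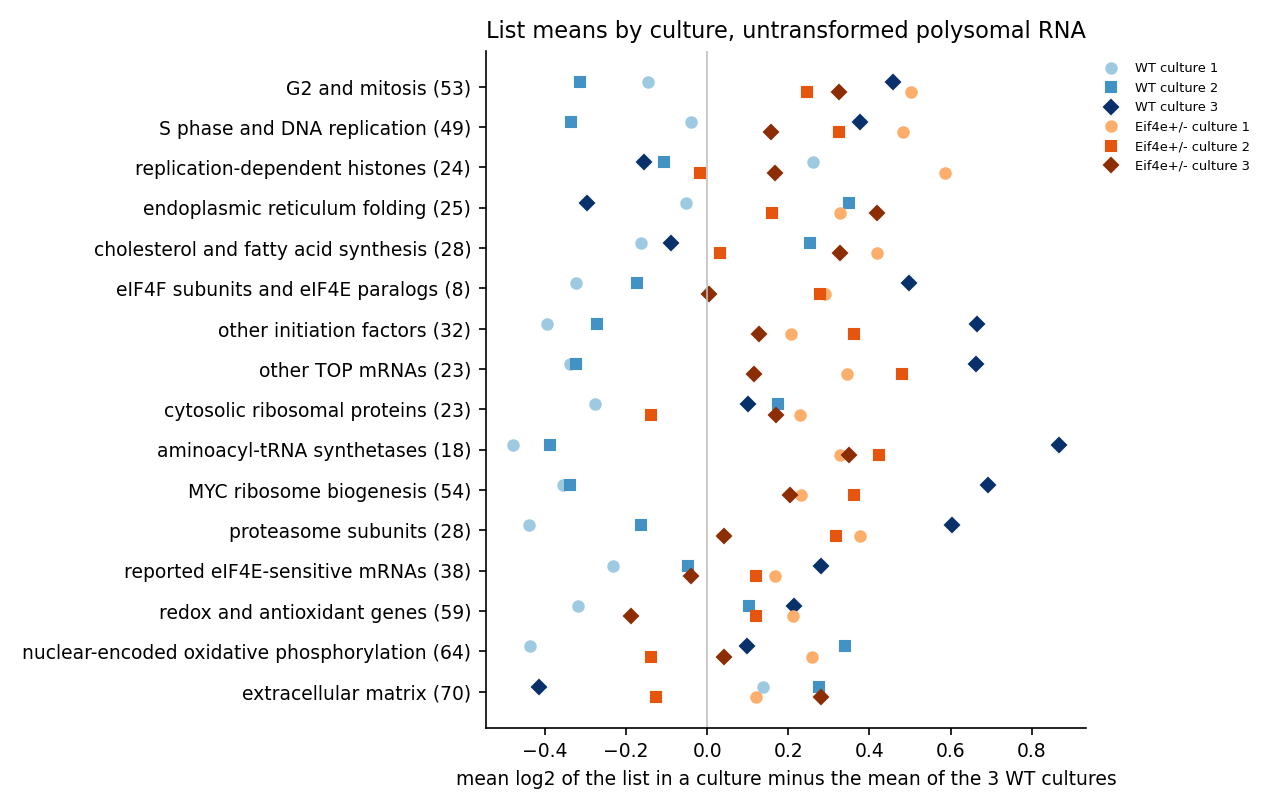
Mean log2 intensity of each gene list (number of genes in brackets) in each untransformed polysomal culture, minus the mean of the 3 WT cultures. WT culture 3 (dark blue) lies to the right of all Eif4e+/- cultures in the MYC, proteasome and translation lists other than cytosolic ribosomal proteins. By a smaller margin it also lies to the right in the reported eIF4E-sensitive and redox lists. It lies within the Eif4e+/- range for cytosolic ribosomal proteins, oxidative phosphorylation, S phase and G2 genes. To the left it lies in the endoplasmic reticulum, cholesterol, histone and matrix lists. In none of the lists shown do all Eif4e+/- cultures lie on 1 side of all WT cultures.

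Cytosolic ribosomal proteins, the classic TOP mRNAs, had values on both sides of 0. Their mean in WT culture 3 (7.22) lay within the Eif4e+/- range (6.98 to 7.35). Of 23 measured 15 were above 0 and the median was 0.12, below the 0.18 of all genes with a level from 6 to 8, but it was -0.00 after quantile normalization, -0.06 on a common spread and -0.00 without WT culture 1. Rpl34 read 7.64, 7.69 and 7.49 in WT and 7.38, 6.99 and 7.26 in Eif4e+/- cultures (-0.40 ± 0.22, SE). It was the single member with groups apart (4.35% of the list, against 3.37% of all genes apart below). Rpl14 (0.59 ± 0.30) and Rplp0 (0.52 ± 0.29) were on the other side of 0 with overlapping groups. Of 82 listed genes 23 were measured, and processed pseudogene copies may share their probes.

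mRNAs reported as sensitive to eIF4E stayed near the background of all genes. Of 38 measured, 24 were above 0 (63.2%, against 53.0% of all genes), the median was 0.09 (-0.01 after quantile normalization, 0.03 on a common spread, -0.05 without WT culture 1 and 0.17 without WT culture 3), and 28 had an interval between a halving and a doubling. All genes with a level from 5 to 6, the class of this list's median level, had a median of 0.13. Groups were apart for 1 member above, the Rrm2 already given, and 2 below, Irf7 and, named after its values were seen, Mmp9. These are 2.63% and 5.26% of the list, against 2.37% and 3.37% of all genes. Irf7, the interferon regulatory factor, read 3.10, 3.20 and 3.06 in WT and 2.77, 2.98 and 2.61 in Eif4e+/- cultures (-0.34 ± 0.16, SE), at a level near background. Hdgf, a growth factor, differed by 0.55 ± 0.32. Genes outside the rule for naming but standard for this class gave Myc 0.35, Ccnd1 0.17 and Odc1 -0.12, all with overlapping groups.

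Redox and antioxidant genes, a class described as dependent on eIF4E, had 34 of 59 above 0 and a median of 0.08, which was -0.01 after quantile normalization, -0.02 on a common spread, -0.10 without WT culture 1 and 0.15 without WT culture 3. Tkt, transketolase of the pentose phosphate pathway, read 4.76, 4.73 and 5.27 in WT and 5.30, 5.49 and 5.41 in Eif4e+/- cultures (0.48 ± 0.21, SE), the member with groups apart above. Groups were apart below for Glrx5 (-0.50) and Osgin1 (-0.34), both named after their values were seen. Redox members apart were 1.69% above and 3.39% below, against 2.37% and 3.37% of all genes. Gpx7 differed by -0.51 ± 0.25 and Txndc5 by 0.41 ± 0.21, with overlap. An interval between a halving and a doubling held for 35 of 59. All genes with a level from 5 to 6, the class of the redox list's median level, had a median of 0.13. Nuclear-encoded oxidative phosphorylation subunits (36 of 64 above 0, median 0.04) and mitochondrial ribosomal proteins (42 of 73, median 0.05) had medians below 0 after quantile normalization. Without WT culture 1 they were -0.15 (18 of 64 above 0) and -0.13 (23 of 73), and without WT culture 3 they were 0.04 and 0.14. On a common spread the first was -0.06 and the second 0.06. The level classes of their median levels had medians of 0.18 and 0.13. Sdhd and Sdha of respiratory complex II differed by 0.54 ± 0.24 and 0.60 ± 0.32, and Mrpl41 (-0.36 ± 0.16) lay below WT in each culture. The other members of both lists with groups apart were Ndufb3 (0.28), Mrpl51 (0.26), Cox5a (-0.28), Mrpl49 (-0.57) and Mrpl57 (-0.32), all but Mrpl49 named after their values were seen. Members apart above and below were 3.13% and 1.56% of the phosphorylation list and 1.37% and 4.11% of the mitochondrial ribosomal list.

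Genes of the fibroblast's own programme were divided. Of 70 extracellular matrix genes 45 were above 0 with a median of 0.07, which was 0.15 without WT culture 1, 0.02 after quantile normalization, -0.02 on a common spread and -0.11 without WT culture 3, the culture with the lowest list mean (5.66, 5.80 and 5.11 in WT, 5.64, 5.40 and 5.81 in Eif4e+/- cultures). The chains of type I collagen had like values: Col1a1 read 6.07, 6.71 and 6.21 against 6.73, 6.57 and 7.28 (0.53 ± 0.24, SE), and Col1a2 read 6.15, 6.68 and 5.92 against 6.72, 6.46 and 7.30 (0.58 ± 0.27). In both genes Eif4e+/- culture 3 was the highest and the groups overlap. Has2, a hyaluronan synthase, differed by 0.57 ± 0.24. Contractile and serum response factor targets had 27 of 34 above 0 and a median of 0.11, with Myh9 at 0.53 ± 0.29, and the median was 0.05 after quantile normalization, -0.03 on a common spread and 0.31 without WT culture 3. Col15a1 (-0.36), named after its values were seen, was the matrix gene with groups apart, and no contractile gene had groups apart. RAS-ERK output genes had 20 of 31 above 0, a median of 0.17 and Hbegf, an epidermal growth factor receptor ligand, at 0.74 ± 0.31 with groups apart. That median was 0.01 after quantile normalization, 0.09 on a common spread and 0.07 without WT culture 1. Groups were also apart for Epha2 (0.40) and, named after its values were seen, Ereg (-0.33). Members apart in that list were 6.45% above and 3.23% below, against 2.37% and 3.37% of all genes.

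Stress and metabolic lists had medians from -0.04 to 0.26. ATF4 targets, which serve amino acid supply under stress, had 21 of 28 above 0 and a median of 0.26 (0.04 without WT culture 1, 0.40 without WT culture 3, 0.17 after quantile normalization), including Slc7a3 (0.56 ± 0.20, SE) and the serine synthesis enzyme Phgdh (0.63 ± 0.30). Glycolysis and hypoxia genes had 17 of 26 above 0 and a median of 0.12 (0.04 without WT culture 1, 0.20 without WT culture 3, 0.03 to 0.05 under both rescalings), and Tpi1 (0.29) and, named after its values were seen, Aldoa (0.22) had groups apart. p53 targets had 10 of 28 above 0 and a median of -0.04 (-0.15 without WT culture 1, 0.09 without WT culture 3, -0.06 after quantile normalization), with the DNA damage sensor Ddb2 at -0.33 ± 0.14 (3.31, 3.33 and 3.45 against 3.10, 3.08 and 2.93, apart), and interferon response genes had 10 of 25 and -0.02, which lay between -0.02 and 0.01 without WT culture 1 or 3 and under both rescalings. Of nuclear noncoding RNAs 5 of 8 were above 0 with a median of 0.11, and Malat1 read 3.62, 4.16 and 5.09 in WT and 6.01, 4.53 and 5.03 in Eif4e+/- cultures.

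Most markers of other cell types were near background in polysomal RNA, and a few were not. Of 72 measured markers 46 had a mean level under 4 and 4 a level over 5. The list means over the 6 cultures were 3.39 to 3.76 for endothelium (4 of 12 above 0), 3.33 to 3.85 for leukocytes and macrophages (8 of 13), 3.85 to 4.14 for neural cells (5 of 12), 3.80 to 3.95 for epithelium (2 of 9), 4.06 to 4.38 for skeletal muscle (1 of 12), 4.06 to 4.25 for cartilage (4 of 6) and 3.47 to 3.73 for adipocytes (3 of 8). The 4 markers over 5 were the muscle actin Acta1 (6.89) and the neural markers Tubb3 (5.75), Gap43 (5.45) and Ncam1 (5.25), of which Acta1 and Gap43 were named after their values were seen. Tubb3, a neuronal tubulin, had the widest range of the 72 (4.71, 5.77 and 6.06 in WT against 7.04, 5.22 and 5.68 in Eif4e+/- cultures; 0.46 ± 0.43, SE), and its groups overlap. Total RNA of the same cultures gave 9.78 to 10.68 for Tubb3, 10.71 to 11.16 for Ncam1 and 9.32 to 10.50 for the macrophage gene Lyz2. Groups were apart above for 5 markers, Krt18 (0.51), Acan (0.35), Sox10 (0.28), Col9a1 (0.16) and C1qa (0.13), and below for 3, Tnnt1 (-0.42), Krt5 (-0.26) and Krt14 (-0.19). Over all genes tested, 2.37% were apart above and 3.37% below. Krt18 and C1qa were named after their values were seen. The endothelial co-receptor Eng read 4.94, 4.70 and 3.77 against 3.82, 4.17 and 3.60 (-0.61 ± 0.37, SE), with overlap. Fewer cells of a type and less RNA per cell cannot be told apart in these bulk samples, and the part of these markers in the results above was not tested. The 10 genes with the highest polysomal level differed by -0.32 (Gm10548) to 0.30 (the small RNA gene Rny3), each with overlapping groups.

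After transformation the polysomal contrast of the same embryos also had 0 called genes (0.0%), as did untransformed total RNA (0.0%). For cell cycle genes the transformed cultures gave 25 of 53 G2 and mitosis genes above 0 (median -0.02) and 25 of 49 S phase genes (median 0.01), while histones gave 18 of 24 (median 0.25), with H2bc9 at 0.45, H4c6 at 0.25 and H4c8 at 0.60, each with groups apart. Ncapd2 differed by -0.22 and Asf1b by 0.08 in transformed polysomal RNA. The test of the difference between the states, with embryo as a block, called 0 genes (0.0%), with a smallest adjusted p of 0.9996. Its smallest p-values in the upward direction included Fgf7 (2.33 between the states), Plac8 (2.13), Tagln (2.00), Myl9 (1.78) and Bola2 (1.31). In untransformed polysomal RNA these genes differed by -0.18, 0.20, 0.21, 0.01 and -0.39. In the downward direction they were Egln3 (-1.66), Ermp1 (-1.50), Enthd1 (-1.39), Pxdc1 (-1.29) and Bmp2k (-1.05), of which Ermp1 (0.78 ± 0.30, SE) and Bmp2k (0.62 ± 0.20) were the ones with an unadjusted p under 0.05 in untransformed polysomal RNA.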

How the data were processed

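RNA of whole lysates and of heavy polysomes was amplified (NuGEN Applause) and read on Affymetrix gene arrays for mouse, per the labels. The authors deposited log2 RMA intensities, per the series description; RMA's version and the chip definition are not given in the sources used here. Of 25668 probe sets, 20777 have 1 symbol in the platform annotation, 232 have several and 4659 have none. Where a gene had several probe sets (564 genes), the brightest was taken. A gene was tested if it exceeded the 40th percentile of 3 or more of the 24 arrays. Each fraction has its own mean level, and total RNA was not subtracted.

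limma 3.58.1 (lmFit, eBayes; R 4.3.3) was fitted to the 12 polysomal arrays as 4 group means (8 residual degrees of freedom), with calls at an adjusted p (Benjamini-Hochberg) under 0.05. Total RNA was fitted alike, and the difference between the states had embryo as a block (4 residual degrees of freedom). Eif4e probe sets were compared by exact permutation tests. Fits were tested on simulated data. The number of arrays limits the precision.

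Genes were named by a rule: the 10 smallest p-values per direction with non-overlapping groups (no gene being called), eIF4F and its regulators, 3 members of smallest p per list, the 10 of highest level, and 5 per direction for the difference between states; not all are printed. The members and the 34 lists were chosen with earlier results of these data known, and lists are described by counts beside all genes, without a test. The closing section gives the alternatives tried.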

Additional observations from a re-analysis of the deposited data

How the results depend on the processing

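Under all 15 alternatives for the polysomal comparison 0 genes were called: limma on the 6 arrays alone (175 genes at an unadjusted p under 0.05), array weights (785), trend and robust settings (273), no filter on low values (352), a filter on the 6 arrays (202), quantile normalization (304), a common spread (309), the mean of a gene's probe sets (253), and without each culture (197 to 1422). With the replicate number as a block (replicate block) limma called 0 genes, with 94 at an unadjusted p under 0.05. Same-numbered WT and Eif4e+/- cultures come from different embryos, so the numbers pair no embryos. Deviations from the genotype means correlated at -0.115, -0.304 and -0.249 between them. Array SDs rose over the WT cultures (1.15, 1.31 and 1.44) and fell over the Eif4e+/- cultures (1.41, 1.34 and 1.28). These correlations therefore cannot show whether same-numbered cultures shared a batch. Total RNA and the difference between the states also gave 0 called genes under each alternative tried. The transformed polysomal contrast called 1 gene after quantile normalization (Csta2) and 0 to 2 when 1 culture was left out (Csta2 and Inhba without WT culture 2, Esm1 without Eif4e+/- culture 2). The cause was not tested.

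Of 1958 values of the genes printed, 44 had the opposite sign. With array weights these were Ckap2 (0.090) and Mknk2 (-0.0088), on a common spread Ckap2 (0.042), Myl9 (-0.32), Rny3 (-0.12) and Tagln (-0.049), and after quantile normalization Ckap2 (0.031), Gins3 (-0.013) and Myl9 (-0.046). Leaving out 1 culture gave ranges across 0 for Ccnd1 (-0.10 to 0.32), Eif4e2 (-0.15 to 0.50), Eif4g2 (-0.10 to 0.57), Myl9 (-0.13 to 0.24), Pdcd4 (-0.38 to 0.54), Plac8 (-0.37 to 0.67), Pxdc1 (-0.019 to 0.33), Eif4ebp1 (-0.33 to 0.22), Eif4ebp2 (-0.22 to 0.013), Myc (-0.021 to 0.67), Tagln (-0.14 to 0.52), Ckap2 (-0.29 to 0.33), Rny3 (-0.016 to 0.56), Egln3 (-0.0041 to 0.29), Eif4a2 (-0.10 to 0.56), Eif4e3 (-0.093 to 0.083), Mknk2 (-0.066 to 0.23), Gins3 (-0.21 to 0.23), Pola1 (-0.14 to 0.30), Tubb3 (-0.066 to 0.84) and Fgf7 (-0.37 to 0.020). Of 510 list medians compared, 49 changed sign. The cause was not tested. Weak signal limits what can be seen in polysomal RNA, where 7765 of 14830 genes had a mean level under 4.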
